A study of Homo sapiens with 4 samples.

Results

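The nuclear transport genes described here are the nucleoporins, importins and exportins, taken as every gene whose symbol in the deposited table of the authors' comparison starts with NUP and a number, KPNA or KPNB and a number, IPO and a number, XPO or TNPO, and which had estimated counts in the deposited transcript table. This rule used names and no measured value. It found 46 of the 15220 genes with counts, of which 44 code for proteins (20 nucleoporins, 18 importins and 6 exportins) and 2 are non-coding RNAs named after a neighbour, IPO9-AS1 and NUP50-DT. A further 3 symbols, NUP210L, NUP210P1 and NUP62CL, matched the names and had no counts. Nuclear pore and transport genes with other kinds of symbol, such as TPR, RANBP2, SEC13 and the exportin CSE1L, are outside the rule and were counted in separate lists.

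RNA was sequenced from 2 libraries of PANC-1, a human pancreatic ductal adenocarcinoma cell line labelled wild type, and 2 libraries of PZT-2, a clone of PANC-1 in which the isoforms of the histone variant H2A.Z were knocked down. PZT-2 carried lentiviral short hairpin RNAs driven by the U6 promoter, one against the 3′ UTR of the H2A.Z.1 transcript and one against exon 4 of the H2A.Z.2 transcript, and was selected with puromycin. Both lines grew in DMEM with 10% FBS and were used at passages 12 to 13. PZT-2 is 1 clone, the control lines with a scrambled hairpin are not analysed here, and the study calls the 2 libraries of a line biological replicates, while the labels do not say whether they came from separate cultures. The p-values therefore measure the spread between these libraries only, which may be technical. What the knockdown did and what selection of 1 clone did cannot be told apart.

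The nuclear pore complex is the channel through the nuclear envelope. Its scaffold is built from an outer ring of Y-shaped complexes and an inner ring, it is held in the membrane by a few membrane-spanning proteins that include NUP210, and its central channel is filled by nucleoporins with phenylalanine-glycine repeats. Importin beta (KPNB1), usually through an importin alpha adaptor (the KPNA genes) that reads the nuclear localization signal, carries proteins in, exportins such as XPO1 carry proteins and some RNAs out, and the small GTPase RAN sets the direction of both. Pore proteins of the scaffold are long-lived, so a transcript level is not a level of the protein in the pore.

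The 4 libraries held between 12861438 and 15717528 estimated counts. The targeted genes were lower in PZT-2. H2AFZ fell by 1.47 on the log2 scale (edgeR adjusted p = 6.26e-05) and H2AFV by 0.36 (edgeR adjusted p = 0.00573). The epithelial keratins KRT8, KRT18 and KRT19 stood at 1213 to 3153 TPM (a level scaled by transcript length and library total) over the libraries, KRT7 stood at 8.44 to 11.0 TPM, the endothelial marker PECAM1 was at or below 0.236 TPM, and 5 other markers of other cell types (PTPRC, CD3E, ALB, INS and PRSS1) have no value in the table used. KRT8, KRT18 and KRT19 were lower in PZT-2, with log2 fold changes of -1.17, -0.81 and -0.73, and their part in the results was not tested. In RNA from whole cultures, fewer cells of a state and less RNA per cell cannot be told apart.

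In PZT-2, 3 of the 46 members were higher (KPNA4, XPO6 and KPNA1), 6 were lower (NUP210, NUP35, XPO4, IPO4, KPNA2 and NUP188) and 37 did not pass the threshold of 0.05 on the edgeR adjusted p, which was adjusted over all 15100 genes tested. The members called made up 19.6% of the list, against 28.4% of all genes tested, where the background was 14.7% higher and 13.7% lower and the members gave 3 and 6. The median log2 fold change of the members was -0.086, and that of all genes tested was 0.0012. Before adjustment, 16 members had a p under 0.05, the other 7 being NUP98, NUP107, NUP88, TNPO2, IPO5, IPO13 and IPO11. The libraries of the lines did not overlap for 32 of the 46 members, 69.6%, against 66.3% of all genes. All 46 members passed the minimum of 5 counts in 2 libraries.

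For the members that did not pass, the intervals bound the difference between these libraries only. They rest on the spread between libraries, which may be technical, and do not bound an effect of the knockdown. The 95% interval of the fold change lay within 1.5-fold in both directions for 33 of the 37, and the other 4, KPNA5, KPNA7, IPO9-AS1 and NUP50-DT, are genes of low count.

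**Figure D1:**
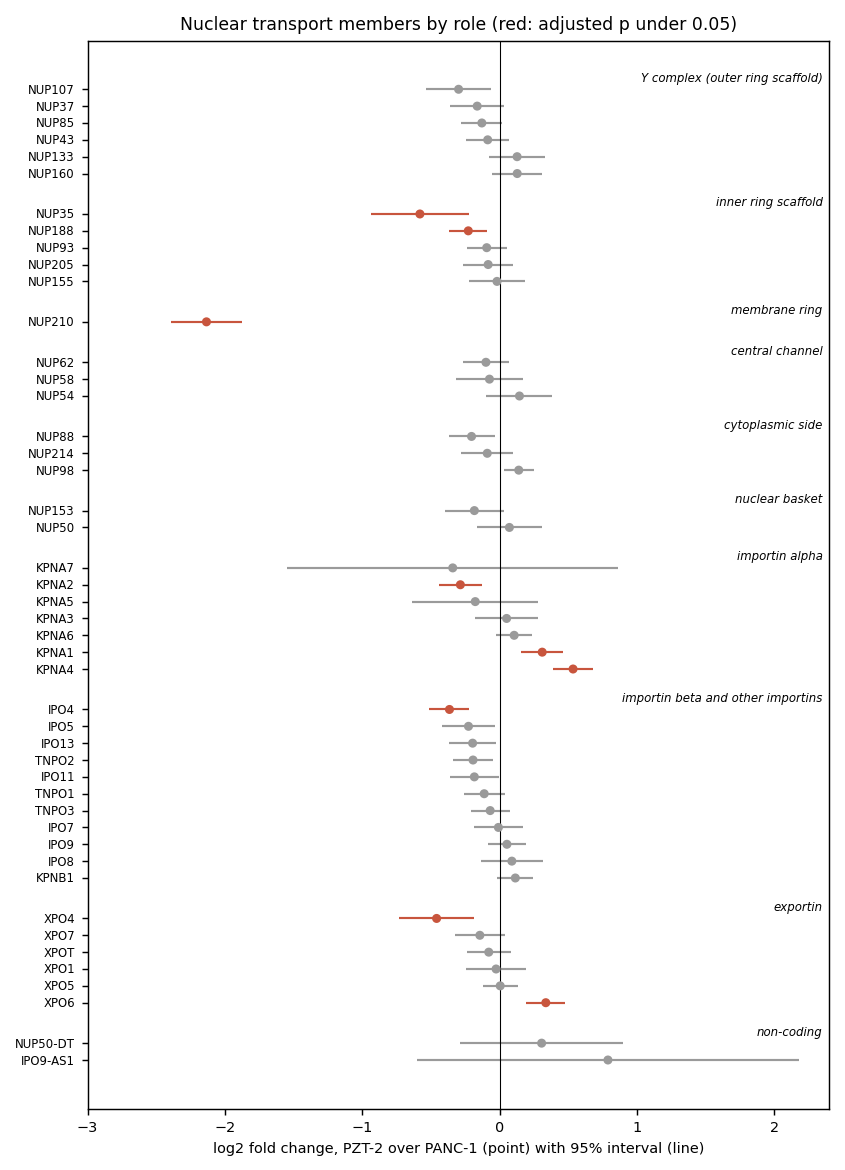
Log2 fold change of PZT-2 over PANC-1 for each of the 46 members, grouped by role, with the point as the edgeR estimate and the line as its 95% interval. NUP210 lies at -2.13, far to the left of all others, and the 9 members past the threshold are drawn in red.

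Promoter sequences are shown because the histone targeted in PZT-2 is known to sit at promoters. They are given, of the called members in the promoter table, for the pair that fell most and the pair that rose most. KPNA4, the called member that rose most of all, has no entry there, so the rising pair is XPO6 and KPNA1. Each run is the 250 bases before the transcription start that the RefSeq table gives on GRCh38.p14. It is written 5′ to 3′ on the strand of the gene. For NUP35 this start lies inside the annotated span, chr2:183117514-183161680, so its run is not upstream of the whole gene. The bases just after the start were found in a transcript of the same gene in the GENCODE annotation for 2 of the 4. Capitals mark 3 promoter motifs found on either strand, so a motif on the opposite strand appears as its reverse complement. The GC box was searched as GGGCGG, a site of the factor SP1. The CCAAT box was searched by the 5 letters of its name, and overlaps of motifs were allowed. The TATA box was searched as TATAAA, the classical start site element. None of these windows held a TATA box. The runs are chr3:13420323-13420572 (minus strand) for NUP210, chr2:183124193-183124442 (plus strand) for NUP35, chr16:28211966-28212215 (minus strand) for XPO6 and chr3:122514940-122515189 (minus strand) for KPNA1.
NUP210: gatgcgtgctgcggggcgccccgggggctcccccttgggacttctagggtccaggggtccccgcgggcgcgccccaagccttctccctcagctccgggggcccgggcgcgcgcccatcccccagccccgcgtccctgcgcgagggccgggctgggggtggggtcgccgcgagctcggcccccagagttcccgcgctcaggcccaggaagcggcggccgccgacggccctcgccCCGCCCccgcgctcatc
NUP35: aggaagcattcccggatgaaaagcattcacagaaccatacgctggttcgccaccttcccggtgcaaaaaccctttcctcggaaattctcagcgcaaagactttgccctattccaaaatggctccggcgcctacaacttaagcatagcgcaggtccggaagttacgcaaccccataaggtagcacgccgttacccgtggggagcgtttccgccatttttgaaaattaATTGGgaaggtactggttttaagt
XPO6: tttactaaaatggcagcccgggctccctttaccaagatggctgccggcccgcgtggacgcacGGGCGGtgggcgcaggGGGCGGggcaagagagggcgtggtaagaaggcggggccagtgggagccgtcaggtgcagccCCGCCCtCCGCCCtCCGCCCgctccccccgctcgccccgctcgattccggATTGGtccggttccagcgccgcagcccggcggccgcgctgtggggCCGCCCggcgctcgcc
KPNA1: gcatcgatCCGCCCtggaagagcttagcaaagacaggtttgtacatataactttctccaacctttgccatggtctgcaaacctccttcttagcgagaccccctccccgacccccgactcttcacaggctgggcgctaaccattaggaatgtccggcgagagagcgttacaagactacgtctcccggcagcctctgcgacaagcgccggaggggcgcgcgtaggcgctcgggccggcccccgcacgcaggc

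The NUP210 promoter was the richest of the 4 in G and C, with 80.8% GC, 33 CpG dinucleotides and 1 GC box. The NUP35 run, which lies inside the annotated gene, stood at the other end with 16 CpG, no GC box and 1 CCAAT box. XPO6 held 6 GC boxes and 1 CCAAT box in 75.2% GC, and KPNA1 held 1 GC box in 61.6% GC. Of the 46 members, 40 have a promoter in the table. A GC box was found in 21 of these 40 (52.5%), against 42.6% of all 35116 promoters of this length. It was found in 6 of the 8 called members among them and in 46.9% of the 32 not called. A link to the calls was not tested. A CCAAT box was found in 45.0% of the members' promoters against 32.0% of all, a TATA box in 5.0% against 10.7%, and the median CpG count was 22 against 11. The set of all promoters was not limited to the genes tested here, so these differences may not be particular to the members. A match of letters is a description, not a site.

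Among the 20 nucleoporins, 3 fell (NUP210, NUP35 and NUP188) and none rose past the threshold. The member that changed most was NUP210, a membrane-spanning glycoprotein of the pore. Its normalized count was 685 and 674 in the PANC-1 libraries and 168 and 141 in the PZT-2 libraries. Both PZT-2 libraries lay far below both PANC-1 libraries, with no overlap. The fold change was -2.13 on the log2 scale (SE 0.11, edgeR adjusted p = 0.000179), 4.39-fold lower in PZT-2, and its absolute size was larger than that of 98.2% of all genes tested. It is also the only member that passed a further 2-fold minimum. The call held in all 18 fits, with log2 fold changes from -2.26 to -1.76. In all 15100 genes tested, 164 fell at least as far, and 44 of these were called lower and had a mean of at least 100 normalized counts in PANC-1.

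NUP210 fell where its surroundings rose. The gene spans chr3:13316235-13420322 on GRCh38.p14, and on chromosome 3 as a whole the median log2 fold change was 0.43, with 48.2% of genes called higher and 2.51% called lower. Within 5000 kb of NUP210 on either side, 67 of the other 73 tested genes had a higher estimate in PZT-2, 45 were called higher and 1 was called lower, and their median was 0.50. The nearest tested gene on one side, HDAC11, a histone deacetylase, stood at 102 normalized counts on average in PANC-1 and 229 in PZT-2 (log2 fold change 1.17, edgeR adjusted p = 0.00501). On the other side IQSEC1 stood at 805 and 943 (log2 fold change 0.23, edgeR adjusted p = 0.0544) and RPL32, a ribosomal protein gene, from 5915 to 8560 (log2 fold change 0.53, edgeR adjusted p = 0.00117). Set against the chromosome median, the fall of NUP210 was larger, -2.56. These neighbours were looked up after the fall of NUP210 had been seen.

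**Figure D2:**
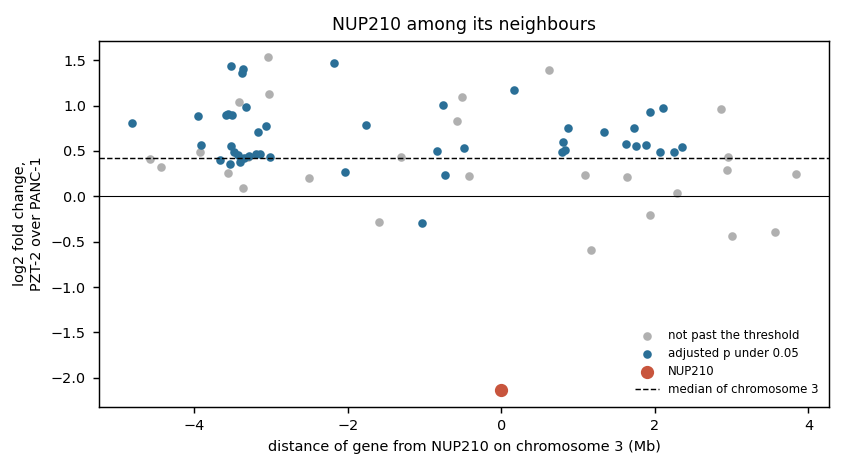
Log2 fold change of PZT-2 over PANC-1 for tested genes within 5000 kb of NUP210, by distance between gene starts in Mb. Points of most neighbours lie above 0 and around the dashed line, the chromosome 3 median of 0.43, while NUP210 lies at -2.13.

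The inner ring scaffold held the other 2 falling nucleoporins. NUP35, also called NUP53, binds the membrane and links the scaffold to it. Its normalized counts were 190 and 222 in PANC-1 and 150 and 127 in PZT-2. The lines did not overlap, and NUP35 had the lowest counts of the called members, 138 normalized counts on average in PZT-2. It fell by 0.58 on the log2 scale (SE 0.15, edgeR adjusted p = 0.0289), and the call was lost when PANC-1 replicate 2 (adjusted p = 0.0696), PZT-2 replicate 1 (0.0588) or PZT-2 replicate 2 (0.167) was left out, and in the replicate block (0.0527). It was also lost with DESeq2 (adjusted p = 0.0982), with limma-trend at both pseudocounts (0.0508 and 0.0513) and with the most abundant transcript alone (0.110). Fewer of all genes were called with the most abundant transcript alone or when a PZT-2 library was left out. Losses in those fits, here and below, are therefore not particular to a member.

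NUP188, a large scaffold protein of the inner ring, gave 2845 and 2753 normalized counts in PANC-1 and 2438 and 2339 in PZT-2. Every PZT-2 library was below every PANC-1 library. It fell by 0.23 on the log2 scale (SE 0.06, edgeR adjusted p = 0.0272), and omission of either PZT-2 library ended the call (adjusted p = 0.108 when replicate 1 was omitted, 0.201 when replicate 2 was). The call also ended with limma-trend at both pseudocounts (adjusted p = 0.0877 and 0.0898) and with the most abundant transcript alone (0.0612). NUP93, NUP155 and NUP205, the rest of the inner ring measured here, had estimates from -0.09 to -0.02 and were not called.

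None of the 6 members of the Y complex was called, with estimates from -0.30 to 0.13. NUP107, a stem subunit of the Y, was at 807 and 964 normalized counts in PANC-1 and 718 and 725 in PZT-2. Both PZT-2 libraries were lower, and the log2 fold change was -0.30 (SE 0.10, edgeR adjusted p = 0.0633). NUP107 was called lower without PANC-1 replicate 1 (adjusted p = 0.00357), with at least 10 counts in all 4 libraries (0.0414) and with the robust prior (0.0466). NUP160 and NUP133 were the 2 subunits with higher estimates, 0.13 each.

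The central channel and the nucleoporins of the faces also stayed on the uncalled side. NUP62, whose repeats line the channel, had 1286 and 1342 normalized counts in PANC-1 and 1281 and 1172 in PZT-2. The PZT-2 libraries lay just under those of PANC-1 (log2 fold change -0.10, SE 0.07, edgeR adjusted p = 0.341). NUP98, a mobile nucleoporin whose gene also encodes the Y complex subunit NUP96 in the same precursor, had 7139 and 7143 in PANC-1 and 7904 and 7818 in PZT-2. Its lines were well separated for a small difference of 0.14 (SE 0.05, edgeR adjusted p = 0.0647), which DESeq2 and limma-trend called higher. NUP153, which anchors the nuclear basket, had 1671 and 1916 in PANC-1 and 1665 and 1495 in PZT-2. The lower PANC-1 library and the higher PZT-2 library of NUP153 nearly met (log2 fold change -0.18, SE 0.09, edgeR adjusted p = 0.177), and without PANC-1 replicate 1 it was called lower with an adjusted p of 0.0134. NUP88 and NUP214, which form a complex on the cytoplasmic face, had estimates of -0.20 and -0.09, and NUP50, NUP54 and NUP58 lay between -0.07 and 0.14.

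**Figure D3:**
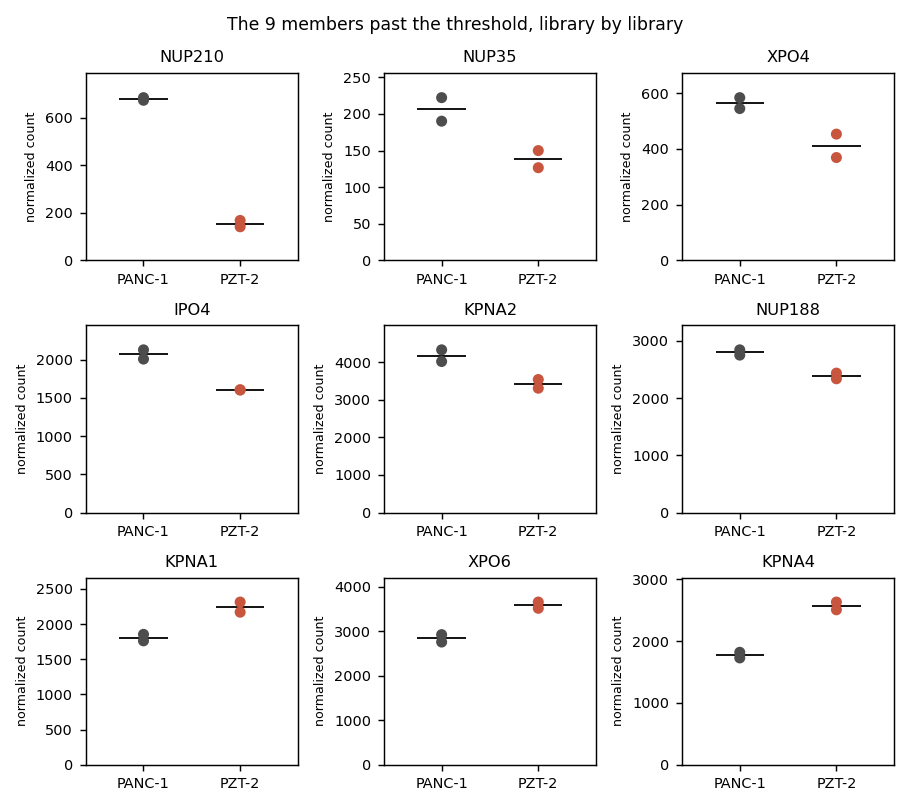
Normalized counts of the 9 called members in each library, with PANC-1 in grey and PZT-2 in red, 1 point per library, the line at the mean of 2 and every axis starting at 0. No called member overlaps between the lines, and NUP210 has the widest gap.

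The importin alpha adaptors changed in make-up more than in sum. KPNA2, importin alpha 1, fell, while KPNA4, importin alpha 3, and KPNA1, importin alpha 5, rose, and KPNA3, KPNA5, KPNA6 and KPNA7 were not called, with estimates from -0.34 to 0.11. For KPNA2 the normalized counts were 4018 and 4329 in PANC-1 and 3539 and 3308 in PZT-2. The lines did not overlap, and KPNA2 fell by 0.29 on the log2 scale (SE 0.06, edgeR adjusted p = 0.0192), a call that ended when either PZT-2 library was omitted (adjusted p = 0.0616 for replicate 1 and 0.151 for replicate 2). Neither limma-trend at both pseudocounts (adjusted p = 0.0697 and 0.0734) nor the most abundant transcript alone (0.0560) called it.

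KPNA4 was counted 1727 and 1818 times in PANC-1 and 2505 and 2631 times in PZT-2 after normalization. The rise was 1.45-fold (log2 fold change 0.53, SE 0.06, edgeR adjusted p = 0.00187), the largest among the called members, and the call held in all 18 fits, though not with a further 2-fold minimum. KPNA1 had 1762 and 1854 in PANC-1 and 2314 and 2170 in PZT-2. Its libraries also did not overlap (log2 fold change 0.31, SE 0.06, edgeR adjusted p = 0.0142), a call that ended when either PZT-2 library was omitted (adjusted p = 0.114 for replicate 1 and 0.0609 for replicate 2). With the most abundant transcript of KPNA1 alone the adjusted p was 0.0531.

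Both risers lie on chromosome 3, KPNA1 at chr3:122421902-122514939 and KPNA4 at chr3:160495007-160565571. Relative to the median of that chromosome, 0.43, KPNA4 stood at 0.11 and KPNA1 at -0.12, so KPNA1 turned direction. Of the tested genes next to KPNA4, TRIM59 fell by 0.39 (edgeR adjusted p = 0.0404) and ARL14 stood at -0.61 (edgeR adjusted p = 0.438). Next to KPNA1, WDR5B stood at 0.09 and PARP9 at 0.14, neither called. Beyond WDR5B, FAM162A stood at 0.58 (edgeR adjusted p = 0.00411) and CCDC58 at 0.68 (edgeR adjusted p = 0.0253). Beyond PARP9, DTX3L at -0.10, PARP15 at -0.61 and PARP14 at 0.10 were not called. The part of the chromosome in these calls was not tested.

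Scaled by length, the 7 importin alpha genes summed to 374 and 410 TPM in PANC-1 and 391 and 371 TPM in PZT-2, which overlap. Within that sum KPNA2 made up 67.0% and 67.9% in PANC-1 and 59.7% and 58.5% in PZT-2. KPNA4 went from 6.44% and 6.36% to 9.43% and 10.4%, and KPNA1 from 8.60% and 8.48% to 11.4% and 11.2%. The shares of 5 of the 7 genes did not overlap between the lines, those of the uncalled KPNA3 and KPNA6 included. By normalized count, 66.3% of all genes did not overlap. The 7 shares divide 1 sum, so a lower share of KPNA2 raises the others where their levels stay the same. The TPM of KPNA3 itself overlapped, at 19.8 and 24.2 in PANC-1 and 24.3 and 23.1 in PZT-2. KPNA2 remained the most abundant adaptor in every library. With 2 libraries against 2, an exact permutation test cannot give a p below 0.333, so the shares carry no test.

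Of the 11 importin beta family members, which bind cargo directly or through an adaptor, only IPO4 was called. IPO4, a receptor that imports histones and ribosomal proteins, gave 2127 and 2006 normalized counts in PANC-1 and 1600 and 1606 in PZT-2. The PZT-2 libraries differed from each other by less than the PANC-1 libraries did and lay below both. IPO4 fell by 0.37 on the log2 scale (SE 0.06, edgeR adjusted p = 0.00647), a call that ended when either PZT-2 library was omitted (adjusted p = 0.0563 for replicate 1 and 0.0628 for replicate 2). KPNB1, importin beta 1 and the partner of every importin alpha, had 8502 and 9091 in PANC-1 and 9324 and 9717 in PZT-2. Its libraries did not overlap by a narrow margin (log2 fold change 0.11, SE 0.05, edgeR adjusted p = 0.168), and without PANC-1 replicate 2 it was called higher (adjusted p = 0.0426). The other 9 ranged from -0.23 for IPO5 to 0.09 for IPO8, and 8 of the 11 had lower estimates in PZT-2.

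The 6 exportins split. XPO6, the exportin of actin and profilin, had 2758 and 2924 normalized counts in PANC-1 and 3657 and 3517 in PZT-2. All PZT-2 values were above all PANC-1 values. The rise was 1.26-fold (log2 fold change 0.34, SE 0.06, edgeR adjusted p = 0.00789), a call that ended when either PZT-2 library was omitted (adjusted p = 0.0706 for replicate 1 and 0.0521 for replicate 2). XPO6 lies at chr16:28097976-28211965, on a chromosome whose median was 0.0012.

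XPO4, which exports the translation factor eIF5A and SMAD3, moved the other way. Its normalized counts were 545 and 584 in PANC-1 and 453 and 369 in PZT-2. The lines were apart, and the PZT-2 libraries differed from each other by more than the PANC-1 libraries did. XPO4 fell by 0.46 on the log2 scale (SE 0.11, edgeR adjusted p = 0.0273), and was not called without PZT-2 replicate 2 (adjusted p = 0.127), with limma-trend at both pseudocounts (0.129 and 0.130) or with the most abundant transcript alone (0.0909). XPO1, the main exportin of proteins with a leucine-rich export signal, had 2581 and 3049 in PANC-1 and 2869 and 2665 in PZT-2. Both PZT-2 libraries fell between the PANC-1 libraries (log2 fold change -0.03, 95% interval -0.24 to 0.19, edgeR adjusted p = 0.863). XPO5, XPO7 and XPOT, exportins of microRNA precursors, of folded proteins and of tRNA, had estimates from -0.14 to 0.0038 and were not called.

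Levels could be compared between members only on the length-scaled TPM. In PANC-1 the highest was KPNB1 at 276 TPM on average, followed by KPNA2 at 265, NUP98 at 139 and IPO7 at 101. In PZT-2 the order was KPNB1 at 311, KPNA2 at 225, NUP98 at 158, XPO6 at 107 and IPO7 at 104. KPNA7 was the lowest coding member at 0.820 and 0.665 TPM. NUP210 was at 11.9 and 12.1 TPM in the PANC-1 libraries, between the means of XPO4 at 7.23 and NUP50 at 17.2, and at 3.09 and 2.59 TPM in PZT-2, below KPNA5 at 4.27. Summed by role, the Y complex stood at 263 and 288 TPM in PANC-1 and 264 and 275 in PZT-2, and the importin beta family at 721 and 786 and at 767 and 763. In both sums the lines overlapped. The sum of the Y complex holds only the 6 subunits with a NUP symbol, and with SEC13 and SEH1L added after the values were seen it was 404 and 435 TPM in PANC-1 and 450 and 486 in PZT-2, which did not overlap. The exportins summed to 293 and 314 TPM in PANC-1 and 335 and 322 in PZT-2, a higher range that XPO6 led. By count, 4 of the 6 exportins had lower estimates in PZT-2. TPM was scaled to the library total only, and with limma-trend on log2(TPM + 1) the median log2 fold change of all genes was 0.045. A rise of that size in these sums is not particular to them.

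At the level of single transcripts, none of the 79 member transcripts tested was called by edgeR, with 17 at an unadjusted p under 0.05. DESeq2 called 12. Over the whole table edgeR called 45 of 30403 transcripts, 0.148%. That share belongs to edgeR alone. None was counted for DESeq2, so its 12 cannot be read against it. Of the members, 8 had at least 2 isoforms above 10% of the gene, and the 5 whose shares moved most were NUP50-DT, NUP62, TNPO2, NUP214 and NUP50.

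The isoform shares of TNPO2, transportin 2, an importer of RNA-binding proteins, were close between replicates. NM_013433 made up 6.12% and 6.25% of the gene in PANC-1 and 15.6% and 17.5% in PZT-2. NM_001136195 went the other way, from 80.6% and 76.5% to 68.2% and 65.1%. Neither overlapped between the lines. The log2 fold change of NM_013433 was 1.21 (SE 0.16), with an edgeR adjusted p of 0.0903 over all transcripts, 0.0415 with a minimum of 10 counts in all 4 libraries and 1.0e-05 with DESeq2. The gene as a whole had a log2 fold change of -0.19 (edgeR adjusted p = 0.0583), and 4 of the 18 fits called it lower.

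For NUP62, NM_153719 made up 31.2% and 27.1% in PANC-1 and 43.5% and 41.3% in PZT-2, while NM_001193357 took 28.6% and 8.19% in PANC-1 and 14.1% and 5.67% in PZT-2. The first did not overlap between the lines and the second did, and the adjusted p of NM_153719 was 0.183 with edgeR and 0.0443 with DESeq2. The shares of NUP214, NUP50 and NUP50-DT differed as widely between replicates as between lines, or rested on few counts: NM_001318324 of NUP214 took 24.4% and 13.3% in PANC-1 and 22.1% and 24.2% in PZT-2.

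Genes of the same pathway with other symbols were counted as 3 lists, to be read against the 28.4% of all genes that were called. Of 14 other nuclear pore proteins 12 were tested, 1 rose (SEC13) and 3 fell (RANBP2, AAAS and TPR), with a median of -0.05. RANBP2, the large protein of the cytoplasmic filaments, had 972 and 1158 normalized counts in PANC-1 and 798 and 675 in PZT-2 (log2 fold change -0.53, edgeR adjusted p = 0.0166). TPR, which builds the basket on the nuclear face, stood at -0.34 (edgeR adjusted p = 0.0407), and AAAS, a scaffold protein near the membrane, at -0.47 (edgeR adjusted p = 0.00484). SEC13, a Y complex subunit on chromosome 3 that also coats vesicles of the endoplasmic reticulum, stood at 0.44 (edgeR adjusted p = 0.00651), which is 0.0082 above its chromosome's median. The near-identical pair POM121 and POM121C share reads and are uncertain.

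In the RAN cycle, 13 of 15 listed genes were tested, 1 rose (NMD3) and 4 fell (CSE1L, RANGAP1, RAN and RANBP1), with a median of -0.09. CSE1L, the exportin that returns importin alpha to the cytoplasm, had 2258 and 2853 normalized counts in PANC-1 and 1831 and 1537 in PZT-2. It fell by 0.60 on the log2 scale (SE 0.13, edgeR adjusted p = 0.0161), further than any exportin of the member list. RAN itself went from 11706 and 11557 to 9435 and 9633 (log2 fold change -0.29, edgeR adjusted p = 0.005), and RANGAP1, which makes RAN hydrolyse GTP at the cytoplasmic side, fell by 0.40 (edgeR adjusted p = 0.0107). RCC1, the exchange factor that loads RAN with GTP on chromatin, was not called (log2 fold change -0.05, edgeR adjusted p = 0.584). NMD3, an export adaptor of the large ribosomal subunit that lies on chromosome 3, stood at 0.40 (edgeR adjusted p = 0.0127), and at -0.026 once its chromosome's median was subtracted.

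Of 26 genes of messenger RNA export 22 were tested, 4 rose and 6 fell, with a median of -0.01. The 4 called genes with the largest change were THOC6 (log2 fold change -0.83, edgeR adjusted p = 0.000835) and THOC1 (0.63, adjusted p = 0.00854) of the THO complex, DDX39A, a helicase that loads export factors (-0.76, adjusted p = 0.000503), and NXT2, a cofactor of the export receptor (-0.64, adjusted p = 0.0143). THOC1 had 161 and 179 normalized counts in PANC-1 and 263 and 265 in PZT-2, and THOC6 had 897 and 870 against 512 and 481. The 2 subunits of 1 complex moved in opposite directions. NXT2 and THOC2, which also fell, lie on chromosome X, where the median was -0.29. Of the genes that rose, NCBP2 (0.61) and THOC7 (0.33) lie on chromosome 3, where the median was 0.43. With that median subtracted they stood at 0.18 and -0.096. THOC1 and PCID2, which also rose, lie on chromosomes 18 and 13. The main receptor NXF1 was not called (log2 fold change 0.01, edgeR adjusted p = 0.931).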

How the data were processed

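RNA-seq (stranded mRNA, paired reads of 76 bases) was analysed for 2 PANC-1 and 2 PZT-2 libraries. The authors trimmed reads with Trim Galore 0.4.1 and estimated transcript counts with kallisto 0.43.0 on RefSeq transcripts. The deposited estimated counts came from sleuth 0.29.0 with 1 scaling factor per library, which was undone here by making genes of 1 transcript whole (factors 0.935 to 1.16), before rounding. The deposited TPM were rescaled here to the same total in each library, and the transcript lengths are as the authors gave them. The submitters' processing notes name hg19, while positions and promoters are RefSeq on GRCh38.p14. The index release is not given in the sources used here. The authors' own test columns were not used.

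Transcripts were named by the table's symbol or, for 3925, by accession, and 103 stayed unnamed (0.0466% of counts). Transcripts matched by accession only joined XPO7, NUP85, TNPO1 and XPO5; the separate genes IPO5P1 and NUP153-AS1, found only that way, are not members. The filter kept genes reaching 5 counts in 2 or more libraries, which were tested with edgeR 4.0.16 (TMM, quasi-likelihood, legacy dispersion) in R 4.3.3, with line as the only term and Benjamini-Hochberg adjustment over all genes. A gene was called at an adjusted p under 0.05. Normalized counts are per effective library size at the mean depth. DESeq2 1.42.0, limma 3.58.1 on log2(TPM + 1) and log2(TPM + 0.1), other filters, scalings and isoform choices, a replicate block and leaving out each library were alternatives. The test was checked on simulated data.

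Every called member was named, with KPNB1, KPNA2, XPO1, NUP98, NUP153, NUP62 and NUP107 whatever their result, the 5 members with the largest isoform shift, and the 4 called genes of each pathway list with the largest change. Other genes were named after their values were seen. Members, roles and lists were chosen with earlier results of these data known. Replicate numbers were not found to pair libraries (correlation of same-numbered deviations -0.025, 2 pairs).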

Additional observations from a re-analysis of the deposited data

How the results depend on the processing

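NUP210 was called lower in every setting and KPNA4 higher in every setting but a further 2-fold minimum. RLE factors, no filter, deposited scaling, length-scaled counts and both other edgeR dispersion choices gave 3 members higher and 6 or 7 lower. With limma-trend and a pseudocount of 1 or 0.1 TPM, 4 were called higher and 2 lower in each. The medians were -0.0264 and -0.0269, where those of all genes were 0.045 and 0.0572, against 0.0012 with edgeR. Over all genes the fit with 1 TPM called 2369 higher and 1446 lower, against 2221 and 2069 with edgeR. DESeq2 gave 4 higher and 5 lower, against 1666 and 1555 of the 13343 genes to which it gave an adjusted p. At least 10 counts in all 4 libraries gave 3 higher and 8 lower, against 2354 and 2216 of 12733 genes. The most abundant transcript alone gave 2 higher and 3 lower, against 1132 and 992 of 15097 genes. A further 2-fold minimum gave 0 higher and 1 lower, and was not counted over all genes. Without single libraries the counts ranged from 1 to 5 higher and from 1 to 11 lower, and the median from -0.108 to -0.053: 11 lower without PANC-1 replicate 1, 5 higher without PANC-1 replicate 2, 1 higher and 2 lower without PZT-2 replicate 1, and 1 higher and 1 lower without PZT-2 replicate 2. The replicate block gave 3 higher and 5 lower (median -0.0856, NUP35 lost) and changed no other member's call. Over all 15100 genes it called 1959 higher and 1747 lower. Member transcripts called went from 0 to 4 with at least 10 counts in all 4 libraries and to 12 with DESeq2. The share over all transcripts was not counted for either setting. XPO1 reversed to 0.0327 and 0.0331 with limma-trend, still below the medians of all genes in those fits. It ranged from -0.145 to 0.0926 when single libraries were left out (positive without PANC-1 replicate 2 and, at 0.0266, without PZT-2 replicate 2). NUP62 reversed to 0.44 with its most abundant transcript, and KPNA1 to -0.118 minus its chromosome's median. The causes were not tested. The 3 alternatives (edgeR version 4 dispersion, robust prior and transcripts with a symbol only) were added after seeing the data. Lone libraries are assumed to vary like the other line.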

Other observations

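A few values fall outside the comparisons above. The non-coding members were low and uncertain: IPO9-AS1, whose span overlaps that of IPO9, had 3.38 and 4.52 normalized counts in PANC-1 and 6.04 and 7.91 in PZT-2, and NUP50-DT had 46.1 and 50.6 against 69.5 and 50.4. Of the 46 members, 17 overlap another annotated gene and 13 have pseudogenes named after them, among them NUP210 and KPNA2 with 3 each and NUP50 with 4; the share of reads assigned to the wrong copy was not tested.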
